A study of Mus musculus with 19 samples.

Results

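The cultures described here are T helper 2 (Th2) cells of the mouse labelled as Gata3 knockouts. They are further labelled early or late, and that label is called the stage here. The comparison rests on 4 of the 19 libraries of the series: the 2 RNA libraries labelled as late Gata3 knockout (KO) and the 2 labelled as early Gata3 KO. They were chosen by genotype and stage alone, with no measured value used. The study asked how the transcription factors Bcl11b and GATA3 regulate genes in Th2 cells, and it holds 16 RNA libraries and 3 libraries of chromatin immunoprecipitation or its input. All cells were mouse Th2 cells, and for the Gata3 experiment the sources used here name no agent, age, strain or culture schedule. Early Gata3 WT and late Gata3 WT cells, with 2 libraries each, served as the reference level of each gene. They also entered the gene filter, the scaling and the estimate of spread behind the p-values, and were compared with each other. RNA was purified, 10 ng was amplified and the product was sequenced. The sources used here do not give the deleted exons of Gata3, the cells in which they were removed or the interval before sampling, so stage and the time since deletion cannot be told apart. Whether early and late name the time of sampling or the time of deletion is not stated either.

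Th2 cells are the CD4 helper cells that, through interleukin (IL)-4, IL-5 and IL-13, drive allergic inflammation and defence against worms. GATA3 is the zinc finger factor that specifies them: it binds GATA sequences at the cytokine cluster and keeps the genes of the opposing Th1 programme, such as Ifng and Tbx21, low. Th1 cells and cytotoxic lymphocytes use T-bet (Tbx21) and Eomes to express interferon gamma, perforin and granzymes.

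The 8 libraries of the Gata3 experiment held between 5117526 and 9892746 reads on genes, and the shallowest was late KO replicate 1. Whether replicates came from separate mice or cultures is not stated, so every p-value measures only the spread between these libraries, which may be technical. The WT libraries stood apart from the usual pattern of replicates. Per gene, the squared difference between early WT and late WT of the same replicate number had a median of 2.77 times (replicate 1) and 2.00 times (replicate 2) that of counting noise alone. The 2 replicates of a group differed more, at 5.13 times for early WT and 4.84 times for late WT. For the KO libraries these medians were 3.37 times within the early group, 6.07 times within the late group and 12.7 to 16.4 times between early and late. Early and late WT of the same number thus differed less than replicates did, and the count of changed genes is also given from the KO libraries alone.

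Gata3 itself (chr2:9857078-9887953, build mm10), the targeted gene, had less RNA in the KO cells at both stages, and far less at the early one. Levels are given as CPM, the reads of a gene per 1000000 reads on genes, with library sizes scaled by edgeR's TMM method. Gata3 stood at 425 and 419 CPM in early KO and at 1090.4 and 954 CPM in late KO, against 1178 and 1279.5 CPM in early WT and 1382 and 1327 CPM in late WT. Both late KO libraries lay above both early KO libraries and below all 4 WT libraries. The early KO mean was 34.3% and the late KO mean 75.5% of that in WT of the same stage. Late exceeded early KO by 1.28 ± 0.11 on the log2 scale (SE, adjusted p = 3.83e-05). The log2 difference between KO and WT was -1.54 ± 0.11 early (adjusted p = 5.80e-06; 30.7% of all genes tested passed in that comparison) and -0.41 ± 0.11 late (adjusted p = 0.0361; 14.0% passed). Adjusted p-values are from edgeR's quasi-likelihood F test with Benjamini-Hochberg adjustment over 10601 genes. Transcript reads can come from exons that remain, so how complete the deletion was in either culture was not tested, and stage cannot be told apart from the amount of Gata3 RNA that remained. Bcl11b, the other factor of the study, stood at 109 and 107 CPM in early KO and 123 and 118 CPM in late KO, a log2 difference of 0.16 ± 0.12 that did not pass the test (adjusted p = 0.404).

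Late and early KO cells differed in 2600 of the 10601 genes tested (24.5%) at an adjusted p below 0.05. Of these, 1513 genes were higher late (14.3%) and 1087 were lower (10.3%), and the median gene had a log2 difference of 0.01. At least 2-fold differences were called for 764 genes that rose (7.21%) and 437 that fell (4.12%). Replicate groups that did not overlap were common in any case, with 6753 genes (63.7%). Between early and late WT no gene was called by edgeR (0%), with 128 genes at an unadjusted p below 0.05. DESeq2 also called 0, with 69 at an unadjusted p below 0.05, and limma on log2(RPKM + 0.1) called 1. The count in KO fell to 1499 without early KO replicate 1, to 1362 without early KO replicate 2 and to 1669 without late KO replicate 1, and was 1259 when all 16 RNA libraries shared 1 fit. A fit of the 4 KO libraries alone called 2369 genes, which included 87.2% of the 2600. The rises made up 58.2% of the calls, but 46.4% with limma on log2(RPKM + 1) and 48.0% with limma on log2(RPKM + 0.1), so the balance of rises to falls depends on the scale.

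**Figure D1:**
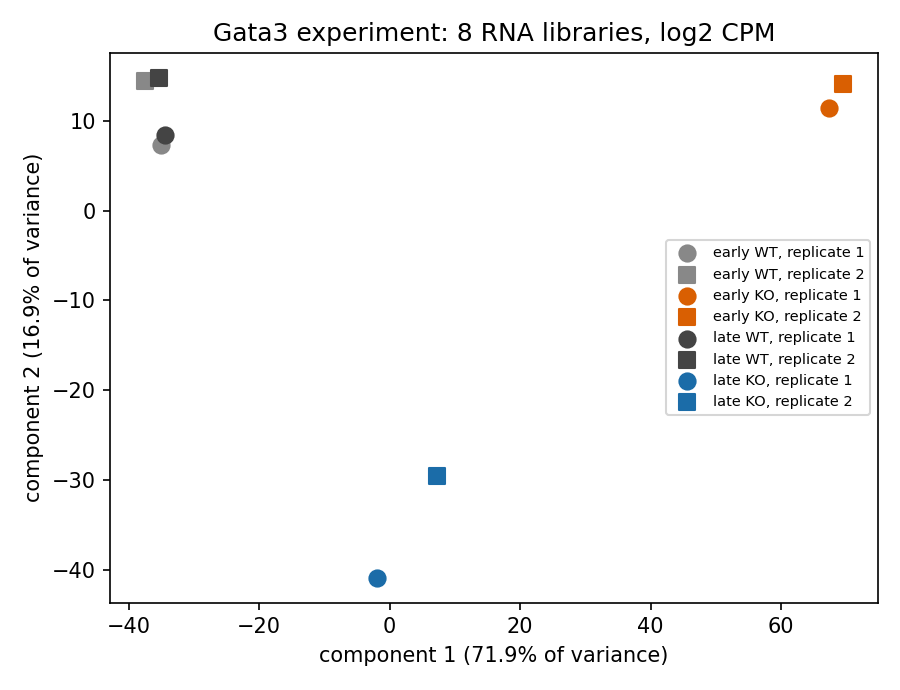
Principal components of log2 CPM over the genes tested, 1 point per library, with the axes in component scores and the share of variance on each axis. The 4 WT libraries lie together at the left of the first component (-37.4 to -34.4), early KO at the right (67.4 and 69.4) and late KO between (-1.94 and 7.30), while the second component sets late KO (-40.8 and -29.5) apart from all other libraries (7.32 to 14.7).

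The first component held 71.9% of the variance and the second 16.9%. On the first, late KO lay between WT and early KO but nearer to WT, and on the second both late KO libraries lay outside the range of the other 6.

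The 3 Th2 cytokine genes of chromosome 11 parted from each other in the late KO cells. Il4 rose to 58.4% of WT, Il13 rose to 2.84%, and Il5 did not pass the test. For these genes, and for Stra6, which rose past WT, the 250 bases before 1 annotated start are shown. For Il4, with 2 annotated starts, and Stra6, with 4, the window shown was chosen because it holds a motif match and the highest GATA3 peak of late WT cells, so neither is a finding. The sequences are RefSeq's for GRCm38.p6, in the direction of the gene, and capitals mark a GATA form on either strand: AGATAA, its variant AGATAG, or with another first base TGATAA, and its variant TGATAG. The Il4 window precedes a start inside the gene, and the window before the gene's own start (chr11:53618666-53618915) held no match and a peak of 2.04-fold enrichment.
Il4, chr11:53617339-53617588, minus strand: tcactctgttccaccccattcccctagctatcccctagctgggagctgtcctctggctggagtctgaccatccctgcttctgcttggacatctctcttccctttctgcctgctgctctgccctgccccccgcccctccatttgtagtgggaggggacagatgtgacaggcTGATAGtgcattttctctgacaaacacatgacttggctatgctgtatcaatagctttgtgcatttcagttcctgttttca
Il13, chr11:53634703-53634952, minus strand: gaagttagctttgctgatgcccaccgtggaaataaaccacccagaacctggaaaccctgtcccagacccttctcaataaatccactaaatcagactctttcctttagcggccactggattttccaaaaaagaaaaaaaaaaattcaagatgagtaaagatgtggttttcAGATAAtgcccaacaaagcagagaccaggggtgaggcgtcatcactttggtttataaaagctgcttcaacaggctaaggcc
Il5, chr11:53720544-53720793, plus strand: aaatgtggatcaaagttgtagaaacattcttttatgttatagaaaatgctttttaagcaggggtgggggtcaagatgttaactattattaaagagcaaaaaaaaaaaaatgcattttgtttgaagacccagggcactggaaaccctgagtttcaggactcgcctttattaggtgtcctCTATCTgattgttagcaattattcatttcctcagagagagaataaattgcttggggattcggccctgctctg
Stra6, chr9:58133825-58134074, plus strand: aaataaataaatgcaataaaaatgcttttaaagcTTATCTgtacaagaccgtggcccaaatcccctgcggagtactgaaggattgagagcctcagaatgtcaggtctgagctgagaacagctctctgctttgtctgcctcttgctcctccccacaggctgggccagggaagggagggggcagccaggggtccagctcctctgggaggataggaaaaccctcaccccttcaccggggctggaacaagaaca
Each window shown held 1 match, and the other 3 Stra6 windows held 0 and no peak. At least 1 match was found in 27.1% of the first listed windows of this length over all genes (7322 of 27025), and a match is a description of the letters only. The authors' peak over the Il4 window (chr11:53617095-53618505) had 11.11-fold enrichment, that over the Il13 window (chr11:53633654-53635169) 8.85-fold and that over the Stra6 window (chr9:58133699-58134410) 11.22-fold. No GATA3 peak overlapped the Il5 window.

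Il4, the cytokine that defines and sustains Th2 cells (chr11:53612460-53618665), was at 3.14 and 2.17 CPM in early KO and at 96.9 and 155 CPM in late KO. Its WT libraries were at 199.7 and 232 CPM early and 179.9 and 252 CPM late, so all 4 KO libraries were below all WT libraries and late was well above early. The KO mean went from 1.23% to 58.4% of WT, a log2 difference of 5.56 ± 0.32 (adjusted p = 4.56e-06), and late KO against late WT did not pass the test (-0.77 ± 0.23, adjusted p = 0.0509). Il13, which acts on epithelium and smooth muscle (chr11:53631323-53634702), was at 2.38 and 1.03 CPM in early KO and 5.09 and 5.88 CPM in late KO, against 180.2 to 214 CPM in WT. The late libraries were above the early ones but both were a small part of WT, 2.84% late and 0.803% early. The late-minus-early log2 difference was 1.69 ± 0.31 (adjusted p = 0.0034), and 2.42 without early KO replicate 1. Il5, the eosinophil growth factor (chr11:53720794-53725103), was at 5.20 and 1.37 CPM in early KO and 2.94 and 1.93 CPM in late KO, against 289 to 436 CPM in WT. The KO groups overlapped, and the log2 difference of -0.53 ± 0.60 did not pass the test (adjusted p = 0.574) and turned to 0.74 without early KO replicate 1. Per length, the authors' RPKM in late KO was 92.3 and 155 for Il4, 2.35 and 2.85 for Il13, and 1.07 and 0.73 for Il5.

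Of 9 Th2 cytokines and partners tested, 5 rose and 1 fell, with a median log2 difference of 1.94. Penk, which encodes the enkephalin precursor, was at 14.6 and 8.58 CPM early and 108 and 99.6 CPM late in KO, against 1460.4 to 1818 CPM in WT. The late libraries were clearly higher (3.15 ± 0.22, adjusted p = 1.08e-05), yet at 6.23% of WT. Il10, an anti-inflammatory cytokine that Th2 cells also make, was at 157 and 118 CPM early and 581 and 473 CPM late, against 1364 to 1760.2 CPM in WT. It rose by 1.94 ± 0.18 (adjusted p = 6.09e-05), from 8.62% to 35.2% of WT. Areg, encoding the growth factor amphiregulin, was at 1.30 and 0.458 CPM early and 9.39 and 8.82 CPM late, against 129 to 211 CPM in WT. It reached 5.71% of WT (3.33 ± 0.52, adjusted p = 0.00145; 4.26 without early KO replicate 1).

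The other members did not rise by the test. Csf2, the growth factor GM-CSF, was the one that fell, from 6.50 and 8.58 CPM to 0.783 and 0.912 CPM, and WT was at 0 to 1.47 CPM. That call (-3.10 ± 0.82, adjusted p = 0.0217) was lost without any 1 of the 4 KO libraries. Il24 was at 368 and 195 CPM early and 452 and 226 CPM late in KO, with overlapping groups (0.26 ± 0.33, adjusted p = 0.616). Il9 had 0 reads in both early KO libraries and stood at 0.783 and 6.08 CPM late, at least 25.6-fold higher against a floor of 3 reads over the group, without passing the test (adjusted p = 0.0563). Il3 was too low to be tested.

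**Figure D2:**
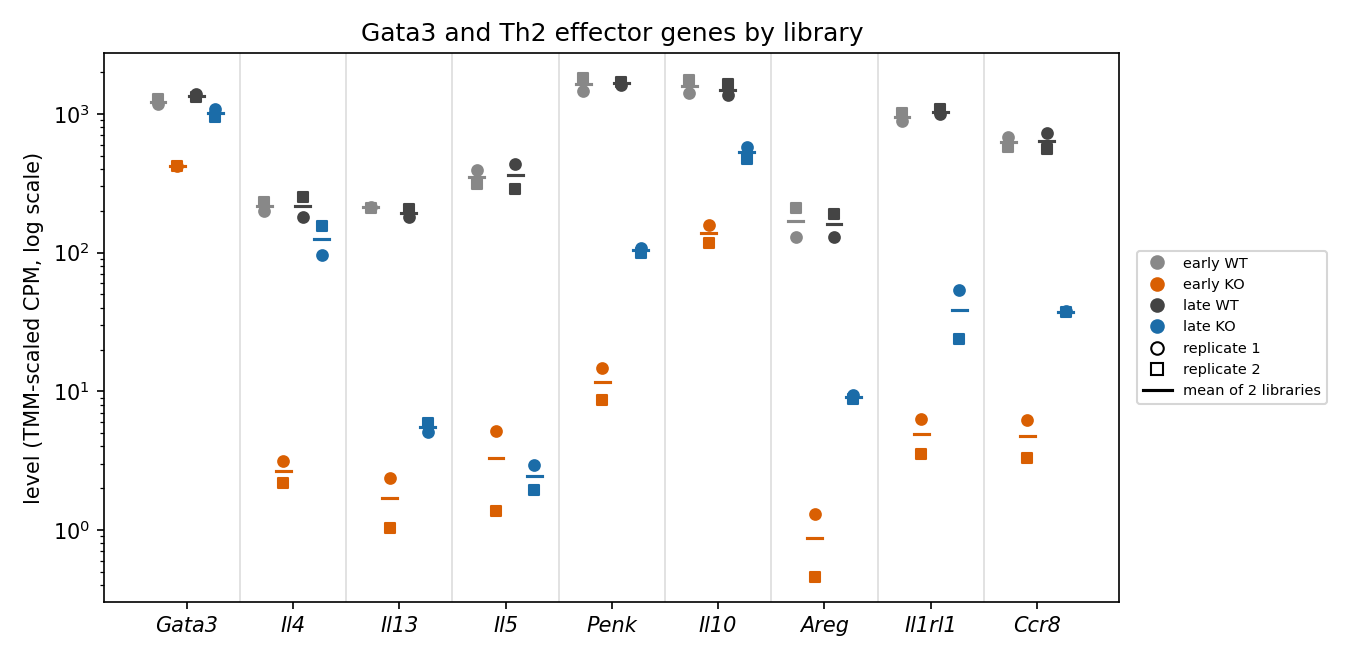
Levels of 9 Th2 genes in CPM on a log axis, 1 point per library, by group. Il4 in late KO (96.9 and 155 CPM) is near the WT points, Il13, Penk, Areg, Il1rl1 and Ccr8 rise above early KO but stay far below WT, and Il5 lies at the same low level in both KO groups.

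Around the cytokine cluster some neighbours rose, others fell and others were not called. Of 10 genes tested within 200 kb, Kif3a, which encodes a kinesin motor subunit and lies next to Il4, was at 9.85 and 12.4 CPM in early KO and 172 and 159.6 CPM in late KO, against 130.1 to 147 CPM in WT. Both late libraries were above every WT library, and the mean went from 7.89% to 119% of WT (3.90 ± 0.15, adjusted p = 7.51e-07). Aff4, an elongation factor scaffold on the far side of Kif3a, was at 36.4 and 37.1 CPM early and 66.4 and 49.9 CPM late, against 255 to 302 CPM in WT. It rose by only 0.65 ± 0.15 (adjusted p = 0.0112), to 21.5% of WT. Rad50, the DNA repair gene between Il13 and Il5, had means of 72.0 and 89.2 CPM and did not pass the test (adjusted p = 0.103). Irf1, an interferon-induced factor, fell from 304 and 325 CPM to 187 and 239 CPM and was at 94.9 to 132 CPM in WT (-0.56 ± 0.15, adjusted p = 0.0209). Uqcrq, Gm12216 and Slc22a5 were not called.

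**Figure D3:**
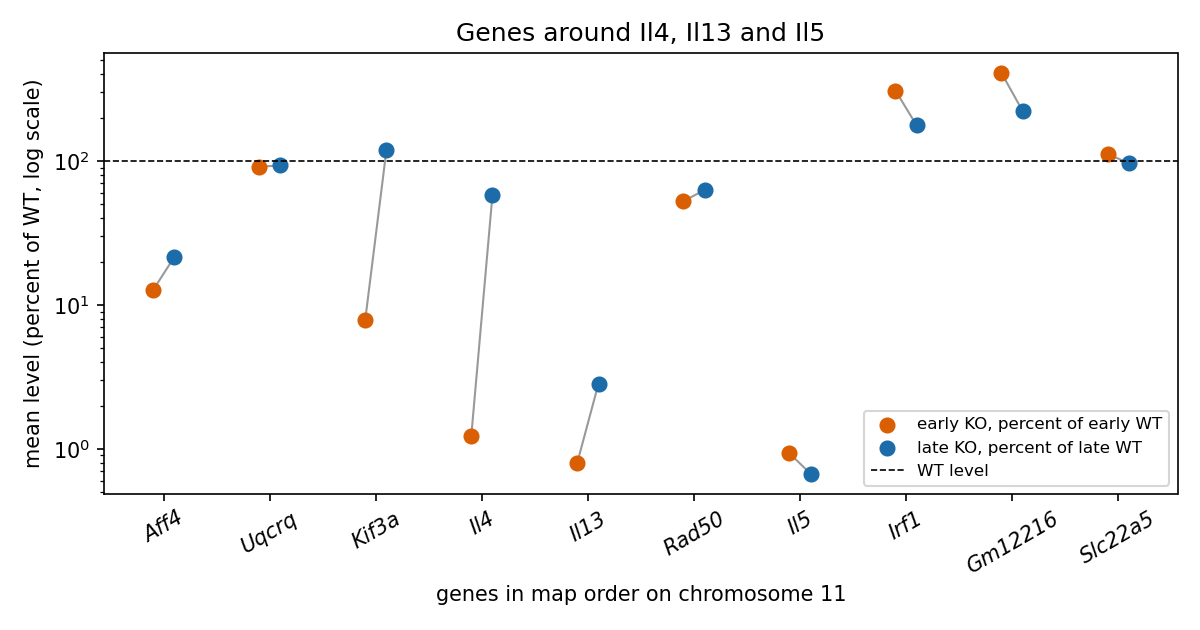
KO level as a percent of the WT level of the same stage (log axis) for genes tested around the Th2 cytokine cluster, in their order along the chromosome, with early and late KO as separate points. Kif3a and Il4 show the widest gaps between early and late (7.89% to 119% and 1.23% to 58.4%), while Il5 shows none upwards (0.933% to 0.670%).

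Among 17 tested Th2 transcription factors and receptors, 12 rose, Gata3 itself among them, and 2 fell, with a median log2 difference of 1.44. Rbpj, the DNA-binding partner of Notch, came close to WT, with 1 late KO library above and 1 below the WT range: it was at 132 and 145 CPM in early KO, 526 and 464 CPM in late KO and 478 to 514 CPM in WT (1.84 ± 0.12, adjusted p = 6.92e-06). Pparg, a nuclear receptor of Th2 cells, went from 3.14 and 1.95 CPM to 77.3 and 59.6 CPM and stayed below its WT level of 131 to 189 CPM (4.73 ± 0.32, adjusted p = 9.29e-06). The AP-1 subunit gene Junb rose from 309.7 and 259.6 CPM to 859 and 922 CPM, within the WT values of 777 to 962 CPM. Ccr4, a chemokine receptor of Th2 cells, passed WT: it was at 34.2 and 47.4 CPM early, 192 and 174 CPM late and 105 to 126 CPM in WT. In contrast, 2 receptors stayed at a few percent of WT. Il1rl1, the IL-33 receptor, was at 6.28 and 3.55 CPM early and 53.4 and 23.7 CPM late, against 887 to 1080.2 CPM in WT (2.92 ± 0.38, adjusted p = 0.000507; 2.24 without late KO replicate 1). Ccr8, another Th2 chemokine receptor, was at 6.17 and 3.32 CPM early and 38.0 and 37.0 CPM late, against 559 to 726 CPM in WT (2.97 ± 0.25, adjusted p = 3.25e-05). They reached 3.72% and 5.83% of WT. The members that fell were Ikzf1, encoding the lymphoid factor Ikaros, from 376 and 393 CPM to 214 and 228 CPM, and Bhlhe41. Both were singled out after their values were seen, and only 1 fall was called without any 1 KO library.

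Most chemokine receptor genes rose as well. Of 12 chemokine receptors tested 10 rose and 1 fell (median 1.95), and of 6 IL-1 receptor family genes 3 rose and none fell (median 0.63). Ccr4, Ccr8 and Il1rl1 were also counted among the Th2 receptors above. Ccr1, a receptor for inflammatory chemokines, was at 3.36 and 1.49 CPM in early KO, 157 and 157 CPM in late KO and 224 to 299 CPM in WT. It went from 0.944% to 58.2% of WT (5.99 ± 0.28, adjusted p = 2.1e-06; 6.70 without early KO replicate 1). Il1r2, the decoy IL-1 receptor, rose from 9.74 and 8.12 CPM to 191 and 114 CPM, below its WT level of 235 to 381 CPM. Of 11 genes listed as typical of group 2 innate lymphoid cells, which also depend on GATA3, 8 rose and none fell (median 2.36). That list shares Gata3 itself, Il1rl1, Il17rb, Areg, Icos and Ptgdr2 with the Th2 lists, and Il2ra and Il7r with others. Its count is therefore not separate from theirs.

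Genes of the Th1 programme fell more often than they rose. Of 18 tested, 3 rose and 8 fell, with a median log2 difference of -0.58. Over all genes tested 14.3% rose and 10.3% fell, so the share of Th1 genes that rose was near the background. Ifng, the Th1 cytokine interferon gamma (chr10:118441046-118445894), was at 931 and 991 CPM in early KO and at 7.05 and 84.5 CPM in late KO, against 2.63 to 6.10 CPM in WT. Late replicate 1 was close to WT and late replicate 2 was not, and both were far below early KO. The log2 difference was -4.32 ± 0.72 (adjusted p = 0.00211), -3.53 without late KO replicate 1 and -7.09 without late KO replicate 2. Eomes, the T-box factor of cytotoxic cells, was at 204 and 207 CPM early and 5.48 and 9.43 CPM late, against 0.376 to 1.22 CPM in WT (-4.71 ± 0.24, adjusted p = 2.52e-06). Ccl5, a chemokine of Th1 and cytotoxic cells, fell from 189 and 140.3 CPM to 7.83 and 14.2 CPM, against 0.752 to 3.39 CPM in WT.

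Tbx21, which encodes T-bet, did not pass the test. It was at 50.5 and 61.2 CPM in early KO and 23.9 and 78.3 CPM in late KO, against 7.59 to 17.0 CPM in WT. The late libraries lay on either side of the early ones, the log2 difference was -0.09 ± 0.47 (adjusted p = 0.915), and its sign changed to 0.47 without late KO replicate 1 and to 0.03 without early KO replicate 2. In the IL-12 pathway, Il12rb2 and Stat4 were named after their values were seen. Il12rb2, the signalling chain of the IL-12 receptor, was at 289.6 and 290.1 CPM early and 169.7 and 293 CPM late, against 6.89 to 12.5 CPM in WT (-0.32 ± 0.22, adjusted p = 0.339). Stat4, which acts below that receptor, fell from 402 and 372 CPM to 125 and 111 CPM and stayed above the WT values of 22.2 to 38.9 CPM (-1.72 ± 0.25, adjusted p = 0.000922). Hlx and Il18r1 were among the 3 members that rose. Hlx, a homeobox partner of T-bet, went from 1.08 and 0.114 CPM to 18.8 and 13.8 CPM against 7.14 to 10.7 CPM in WT. Its log2 difference of 4.69 ± 0.53 was 6.96 without early KO replicate 1 and 3.86 without early KO replicate 2. The call of Il18r1, an IL-18 receptor chain (1.09 ± 0.27, adjusted p = 0.0152), was lost without early KO replicate 1 or 2 or late KO replicate 1.

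The cytotoxic genes fell together: of 22 tested granzymes, perforin and NK receptors, 19 fell and 1 rose, with a median log2 difference of -3.78. Prf1, the pore-forming perforin, was at 528 and 300.0 CPM in early KO and 12.5 and 11.8 CPM in late KO, against 3.13 to 5.13 CPM in WT (-5.10 ± 0.29, adjusted p = 4.04e-06). Fasl, the death ligand, was at 308 and 329.6 CPM early and 16.6 and 21.3 CPM late, against 2.76 to 5.97 CPM in WT (-4.05 ± 0.20, adjusted p = 2.3e-06). Nkg7, a granule membrane gene, was at 1497 and 1232 CPM early and 32.9 and 79.9 CPM late, against 40.0 to 46.5 CPM in WT (-4.57 ± 0.34; -5.37 without late KO replicate 2). Late KO was below early KO in each and above WT in Prf1 and Fasl, while the late Nkg7 values lay on either side of WT. Serpinb9, the inhibitor of granzyme B, fell from 282 and 221 CPM to 10.96 and 17.1 CPM. Granzyme B itself moved less: Gzmb was at 15738 and 11346 CPM early and 8864 and 5749.6 CPM late, against 7291 to 11546 CPM in WT. That call (-0.89 ± 0.27, adjusted p = 0.0395) was lost without early KO replicate 1, early KO replicate 2 or late KO replicate 2, and in DESeq2. The single rise was Srgn, the proteoglycan core of the granule, named for being the exception, which went from 1091 and 1044 CPM to 4413 and 3414 CPM against 4155 to 4392 CPM in WT.

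**Figure D4:**
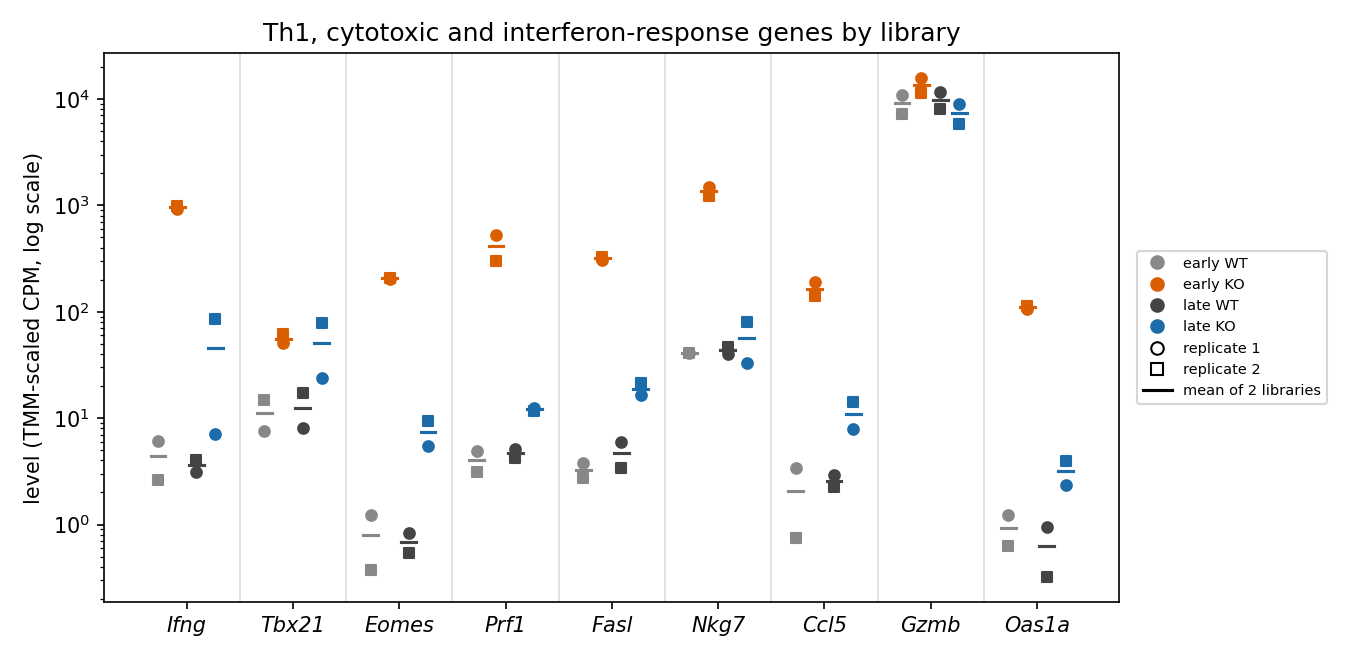
Levels of 9 Th1, cytotoxic and interferon genes in CPM on a log axis, 1 point per library, by group. Ifng, Eomes, Prf1, Fasl, Nkg7, Ccl5 and Oas1a are lower in both late KO libraries than in early KO, the late Tbx21 points (23.9 and 78.3 CPM) straddle the early ones, and Gzmb differs little.

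Some markers of natural killer (NK) and CD8 T cells were also lower in late KO. Their lists share Klrb1c and Ncr1 with the cytotoxic list and Eomes with the Th1 list, so they are not separate from those counts. Of 7 NK and gamma-delta markers in the files 2 were tested, Klrb1c and Klre1. The list's summed RPKM was 10.6 and 11.9 in early KO, 0.114 and 0.284 in late KO and 0.0694 to 0.599 in WT. Both genes could thus pass the filter of 1 RPKM only through early KO. Their lower level in late KO was fixed by that filter and is no result about NK markers. Nearly all of the early KO sum was the NK receptor Klrb1c, with 780 reads over early KO and 3 over late KO, a ratio of 217 (95% interval 73.8 to 1052.5, counting error only). Among the other NK markers of the list, Ncr1, Klra4, Klra7 and Klra8 had 0 reads in all 8 libraries. The 4 CD8 markers, among them Eomes, summed to 46.3 and 45.2 RPKM in early KO, 8.97 and 8.21 in late KO and 3.35 to 4.74 in WT. Eomes, counted above as a Th1 gene, averaged 205.6 CPM in early KO and 7.45 CPM in late KO. The fall of the sum is therefore no measure of Cd8a, which averaged 14.4 and 6.86 CPM. Cd8a fell from 16.6 and 12.2 CPM to 7.24 and 6.49 CPM (-1.08), while Cd4 stood at 835 and 857 CPM early and 1056 and 1043 CPM late. In bulk RNA, fewer cells of a type and less RNA per cell cannot be told apart, and the part of such cells in the fall of the cytotoxic genes was not tested.

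The interferon response was the most uniform fall. Of 27 type I interferon response genes tested, 26 fell and none rose, with a median log2 difference of -1.91, and leaving out 1 library left 21 to 26 falls. Oas1a, which senses double-stranded RNA, was at 105 and 114 CPM in early KO and 2.35 and 3.95 CPM in late KO, against 0.321 to 1.22 CPM in WT (-5.03 ± 0.27, adjusted p = 3.2e-06). Mx1, an antiviral GTPase, fell from 54.1 and 58.8 CPM to 7.05 and 8.11 CPM, below the WT values of 12.0 to 14.8 CPM. Rtp4, a receptor transporter that interferon induces, fell from 107 and 111 CPM to 26.6 and 19.4 CPM and stayed above its WT level of 1.88 to 3.66 CPM. Thus the 3 genes ended above, below and above WT.

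Interferon-inducible GTPases, which are mostly targets of interferon gamma and attack the vacuoles of microbes, had a smaller median fall. Of 15 tested, 11 fell and none rose (median -0.64), and 6 fell without early KO replicate 1 or 2. Iigp1 was at 244 and 352 CPM in early KO and 20.6 and 57.1 CPM in late KO, against 3.93 to 6.54 CPM in WT (-2.89 ± 0.37, and -3.86 without late KO replicate 2). Gbp2, named as one of 4 members without a call, was at 232 and 250.4 CPM early and 162 and 301 CPM late, with overlapping groups (-0.05, adjusted p = 0.906).

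Many genes listed for other helper programmes were higher in late than in early KO. Over all genes tested 14.3% rose and 10.3% fell. The lists share Il21, Icos and Pdcd1 with each other or with the Th2 lists, so their counts are not separate. Of 6 Th17 genes tested 4 rose (median 2.94), of 8 follicular helper genes 6 rose and 1 fell (median 1.15), and of 15 regulatory and inhibitory receptor genes 8 rose and 3 fell (median 0.74). In the last list 5 rose without early KO replicate 2 or late KO replicate 1, and 4 in a fit of all 16 libraries. Il21, the cytokine of follicular helper and Th17 cells, went from 1.62 and 1.14 CPM to 42.1 and 49.2 CPM, close to its WT values of 44.4 to 75.5 CPM (5.03 ± 0.36). Il17a, the Th17 cytokine, rose to 8.61 and 8.21 CPM from 0.433 and 0.687 CPM, against 2.62 to 7.89 CPM in WT. Btla and Cd200, inhibitory molecules of follicular helper cells, both ended above WT: Btla at 28.4 and 34.9 CPM against 13.8 to 19.5 CPM, and Cd200 at 48.0 and 64.2 CPM against 9.62 to 16.5 CPM. Other members stayed below WT: Ahr of the Th17 list at 29.6%, Folr4 of the regulatory list at 46.4% and Icos at 62.2%. The median log2 difference of late KO from late WT was -0.29 for Th17, -0.04 for follicular helper and -0.01 for regulatory genes. As sets the lists thus came back near WT, not past it.

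The inhibitory receptor Ctla4 was at 344 and 307 CPM in early KO and 1407 and 1201 CPM in late KO, against 1039.6 to 1536 CPM in WT (2.00 ± 0.14). Il2ra, the high-affinity IL-2 receptor chain, rose from 749 and 688 CPM to 2007 and 1867 CPM but stayed below the WT values of 3243 to 3332 CPM (1.43 ± 0.10). Havcr2, the Th1 receptor TIM-3, named after its value was seen as 1 of the 3 falls, went from 416 and 284 CPM to 78.3 and 94.98 CPM against 28.9 to 42.2 CPM in WT (-2.01 ± 0.23).

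Naive and memory genes moved both ways: of 20 tested, 12 rose and 5 fell (median 0.61), with 3 falls without early KO replicate 2. S1pr1, which lets T cells leave lymph nodes, went from 6.06 and 6.64 CPM to 54.0 and 46.4 CPM, just below WT at 56.6 to 73.7 CPM (2.98). Il7r, the survival receptor of resting T cells, went from 90.8 and 64.8 CPM to 488 and 312 CPM against 274 to 327 CPM in WT, and Cd28, the costimulatory receptor, from 263 and 220.3 CPM to 845 and 821 CPM against 472 to 565 CPM. Ly6c2 fell from 404 and 313 CPM to 9.79 and 10.0 CPM, within the WT range of 7.01 to 16.1 CPM (-5.17).

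**Figure D5:**
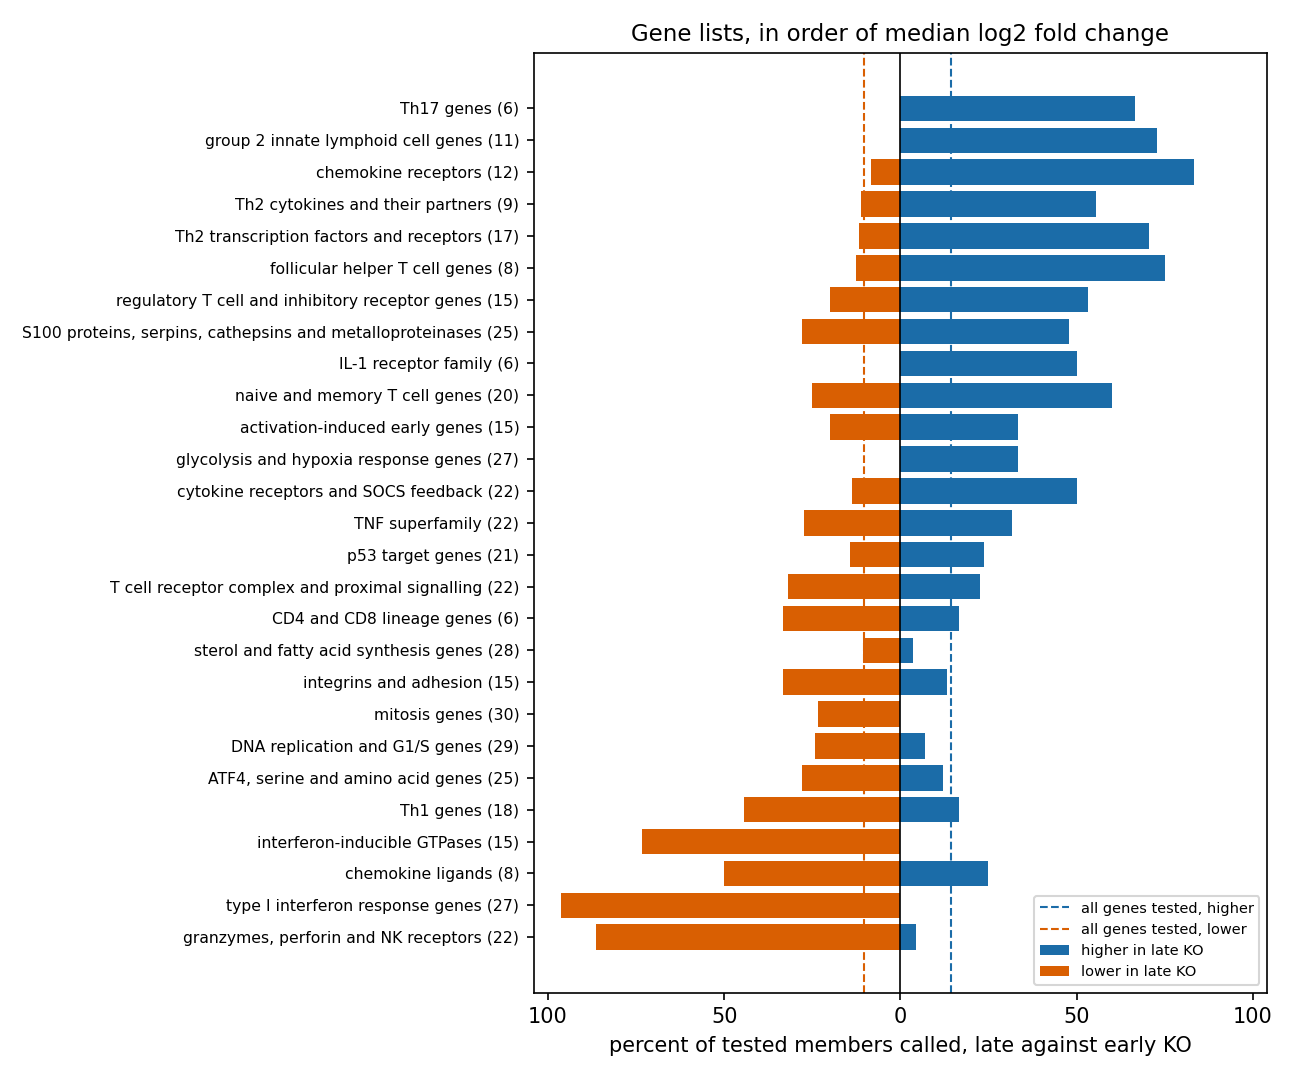
Percent of tested members of 27 gene lists that rose (to the right) or fell (to the left) in late against early KO, ordered by the list's median log2 difference, with dashed lines at the share over all genes tested (14.3% rose, 10.3% fell). Type I interferon and cytotoxic genes lie far past the line on the falling side, and chemokine receptors and follicular helper genes on the rising side.

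Lists for growth and metabolism had small median log2 differences, from -0.48 to 0.47, and shares of calls on both sides of the background. The share called was 31.0% for replication, 14.3% for sterol and fatty acid, 38.1% for p53 and 40% for ATF4 genes, against 24.5% over all genes tested. Calls went 1 way only for mitosis (falls, 23.3%) and for glycolysis and hypoxia (rises, 33.3%). Over all genes tested 10.3% fell and 14.3% rose. Of 30 mitosis genes none rose and 7 fell (median -0.31), of 29 replication genes 2 rose and 7 fell (median -0.33), and leaving out 1 library left 2 to 13 and 1 to 11 falls. Of 27 glycolysis and hypoxia genes 9 rose and none fell (median 0.47), with 3 to 10 rises when 1 library was left out. Hk2, the first enzyme of glycolysis, went from 90.9 and 73.2 CPM to 234 and 244 CPM, past its WT values of 98.9 to 134 CPM (1.54 ± 0.14). The 2 late KO libraries differed from each other on these lists. Replicate 2 was above replicate 1, the shallowest library, in 23 of 30 mitosis genes, 26 of 29 replication genes and 1 of 27 glycolysis and hypoxia genes. Of 28 sterol and fatty acid genes 1 rose and 3 fell, of 21 p53 targets 5 rose and 3 fell, and of 25 ATF4 and amino acid genes 3 rose and 7 fell. With 1 library left out, these falls were 1 to 5, 0 to 3 and 3 to 8, with no p53 target falling without early KO replicate 1 or 2 and 3 ATF4 genes falling without early KO replicate 1. Of 22 T cell receptor and proximal signalling genes 5 rose and 7 fell (median -0.11), but none rose without early KO replicate 2, 1 rose without early KO replicate 1 and 2 rose without late KO replicate 1. In that list the kinase gene Txk showed the largest fall among those named, from 71.3 and 69.3 CPM to 10.8 and 15.7 CPM.

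Of 15 early activation genes 5 rose and 3 fell, of 8 chemokine ligands 2 rose and 4 fell, and of 6 CD4 and CD8 lineage genes 1 rose (Cd4, a call lost in every alternative but the replicate block) and 2 fell. Without early KO replicate 1 the early activation rises were 2, and without early KO replicate 2 or either late KO library the falls were 1. Of 22 TNF superfamily genes 7 rose and 6 fell, and of 22 cytokine receptor and SOCS genes 11 rose and 3 fell. The TNF superfamily rises were 4 without early KO replicate 2 or late KO replicate 2, and the cytokine receptor rises were 6 without early KO replicate 2 or late KO replicate 1 and 7 without early KO replicate 1. Tnfrsf8, the activation receptor CD30, went from 27.1 and 10.1 CPM to 259.7 and 183 CPM against 254 to 276 CPM in WT (3.57 ± 0.35; 4.45 without early KO replicate 1). Of 15 integrin and adhesion genes 2 rose and 5 fell, and Itga4, the alpha-4 integrin chain, went from 18.6 and 23.6 CPM to 137 and 144 CPM, within the WT range of 114 to 148 CPM. Of 25 S100, serpin, cathepsin and metalloproteinase genes 12 rose and 7 fell (median 0.73). The collagenase gene Mmp13 was at 0.974 and 1.83 CPM early and 39.7 and 24.2 CPM late, against 0.105 to 0.136 CPM in WT (4.49 ± 0.36). Mmp9, a gelatinase, went from 12.0 and 8.70 CPM to 100.2 and 96.3 CPM, against 0.877 to 2.85 CPM in WT (3.24 ± 0.29). Both metalloproteinases were thus above WT in early KO and further above it in late KO.

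Markers of other cells moved in both directions, while most of the listed genes were too low to be tested. The macrophage and dendritic list summed to 28.5 and 31.6 RPKM in early KO and 58.3 and 51.8 RPKM in late KO, against 28.2 to 35.0 RPKM in WT, and 4 of its 5 tested genes rose (Ctss, Cd68, Emr1 and Xcr1), but 1 without early KO replicate 2 or late KO replicate 1, and 2 without either other KO library. Its defining genes Lyz2, Csf1r and Fcgr1 had at most 1 read in each KO library. The mast cell list summed to 5.37 and 4.98 RPKM early and 0.78 and 0.381 RPKM late, and its 1 tested gene, Cma1, had 67 and 48 reads early and 0 in both late libraries, with Fcer1a and Tpsb2 at 0 in all 8. With WT means of 0.0678 CPM early and 0 CPM late, Cma1 could pass the filter only through early KO. The stroma and epithelium list summed to 20.3 and 20.1 RPKM early and 70.0 and 45.5 RPKM late, with Krt18 and Pecam1 called as rises and Krt8 and Col3a1 at 0. The class II antigen presentation list summed to 149 and 172 RPKM early and 173 and 142 RPKM late, with overlapping groups, 1 rise and 2 falls. None of 9 B cell markers was high enough to be tested, and neither of 2 tested neutrophil and erythroid markers was called. The part of these cells in any result was not tested.

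Several of the largest rises among genes averaging 5 RPKM or more in the higher group ended near or past WT. Gap43, a growth cone protein, had 2 reads over early KO and 383 over late KO, a ratio of 229.9 (95% interval 63.2 to 1905, counting error only), and its late level of 28.2 and 24.2 CPM lay within the WT range of 16.9 to 28.6 CPM. Inhba, the activin A subunit, was at 1.19 and 1.14 CPM early, 109.6 and 97.4 CPM late and 75.1 to 92.4 CPM in WT (6.45 ± 0.18, adjusted p = 1.31e-07). Serpinf1, an inhibitor of vessel growth, went from 10.9 and 10.2 CPM to 388 and 320.4 CPM against 271 to 362 CPM in WT (5.06 ± 0.19, adjusted p = 7.51e-07). The late values of all 3 genes were thus within or close to the WT range. Timd2, a receptor of the TIM family, was at 1.84 and 0.915 CPM early and 123 and 134 CPM late against 27.1 to 40.0 CPM in WT, and Stra6, the retinol transporter, at 11.04 and 3.66 CPM early and 656 and 527 CPM late against 69.3 to 94.7 CPM. Stra6 went from 8.33% to 790.1% of WT, and in late KO exceeded late WT by 2.98 on the log2 scale (adjusted p = 0.000164), as Timd2 did by 1.98 (adjusted p = 0.000209). Their late-minus-early log2 differences were 6.31 ± 0.36 for Stra6 and 6.52 ± 0.30 for Timd2, 7.33 and 7.11 without early KO replicate 1, and 5.72 and 6.09 without early KO replicate 2. Retnla, an effector secreted in type 2 inflammation, rose from 0.217 and 1.72 CPM to 41.5 and 66.0 CPM against 5.69 to 12.9 CPM in WT, with a log2 difference of 5.81 that was 7.85 without early KO replicate 2 and 4.97 without early KO replicate 1. The chemokine Cxcl3 rose from 0.541 and 0.229 CPM to 54.0 and 63.5 CPM against 13.6 to 39.6 CPM in WT (7.19 ± 0.70; 7.92 without early KO replicate 1).

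The largest falls ended at different distances from WT. Eomes, Prf1 and Oas1a, described above, were still at 1086%, 261% and 499% of WT in late KO, and 3 others came down to a WT level close to 0. Cables1, a regulator of cyclin-dependent kinases, had 774 reads over early KO and 2 over late KO, a ratio of 322 (95% interval 88.9 to 2667, counting error only), and was at 0 to 0.542 CPM in WT. Mybpc1, a myosin-binding protein of muscle, was at 39.4 and 42.7 CPM early and 0 and 0.203 CPM late, a ratio of 307. Fcer1g, the signalling chain of Fc and NK receptors, was at 29.9 and 22.0 CPM early and 0.391 and 0.608 CPM late, against 0 to 0.523 CPM in WT (-5.57 ± 0.43). In these 3 genes the late values were within or next to the WT range, and early KO stood alone.

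Set against the WT means of both stages, most of the genes that changed at least 2-fold moved toward WT, with a limit of 2-fold (after adding 0.5 CPM) that was chosen after values were seen. Of the 764 rises, 382 (50%) went from below WT to within 2-fold of it, 89 (11.6%) stayed below, 183 (24.0%) were within 2-fold in both states, and 110 (14.4%) ended above WT. Of the 437 falls, 231 (52.9%) went from above WT to within 2-fold of it, 136 (31.1%) stayed above and 18 (4.12%) ended below. Over all genes tested, 5.15% went from below WT to within 2-fold, 3.77% from above to within, and 84.6% were within in both states. The rises and falls were chosen by a change between the same KO means, which favours such moves, so the shares are descriptions only. The following 4 genes were named after their values were seen. Tgm2, a transglutaminase, was at 409 and 453 CPM in early KO and 2511 and 1352 CPM in late KO, against 99.98 to 400.4 CPM in WT (2.16 ± 0.60, adjusted p = 0.0264). WT split by replicate number, with 400.4 CPM early and 311 CPM late in replicate 1, and 117 and 99.98 CPM in replicate 2. Early KO was above all of these but close to the highest. Csf1, the macrophage growth factor, went from 5.74 and 2.86 CPM to 73.6 and 68.9 CPM against 7.18 to 21.6 CPM in WT (4.04 ± 0.37). Car2, a carbonic anhydrase, crossed WT downward, from 45.1 and 31.2 CPM to 2.35 and 1.72 CPM against 6.51 to 11.5 CPM (-4.28 ± 0.31). Gzma, another granzyme, went from 8367 and 5142 CPM to 1795 and 946 CPM against 2424 to 4082 CPM in WT (-2.30 ± 0.34), and in late KO was below late WT (-1.33, adjusted p = 0.0265).

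The stage change in KO minus that in WT passed the test for 1294 genes (12.2%), of which 820 were higher (7.74%) and 474 lower (4.47%). Of these, 1281 were also called within KO with the same sign, 99.0% of the first set and 49.3% of the second. The comparison reuses the KO libraries and is not independent of the counts above.

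The share of genes with an assigned GATA3 peak was largest among those that rose. The peaks come from 1 library of late WT cells, and each was assigned by the authors to its closest start. After removal of 1413 peaks (4.94%) that overlapped an input peak, 27199 remained. A peak was assigned to 534 of the 764 genes that rose at least 2-fold (69.9%), to 260 of the 437 that fell at least 2-fold (59.5%) and to 5637 of all 10601 (53.2%). Of the 502 rises whose early KO level was below WT, 367 had one (73.1%). The order changed with the distance allowed: within 1 kb the shares were 21.2%, 14.4% and 16.6%, so that falls then lay below all genes. These shares are descriptions, with no test. The median transcript length was 2650.5 bases for the rises, 2507 for the falls and 2584 for all genes, and the part of gene length or expression level in these shares was not tested. Among single genes, Gata3 had 38 peaks assigned, Inhba 22, Pparg 17, Ccr1 14, Il4 13, Il13 9, Ifng 4, Il5 3, Stra6 1 and Penk 1, while Prf1 and Eomes had 0. The highest enrichment was 25.38-fold at Il13, 23.56-fold at Inhba, 11.11-fold at Il4 and 6.79-fold at Il5. A relation between peak enrichment and levels in late KO was not tested.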

How the data were processed

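RNA was measured in 16 libraries, of which 8 (Gata3 KO and WT, early and late) were used, and peaks in 1 GATA3 chromatin immunoprecipitation library and its input. The deposited tables give raw read counts per RefSeq transcript, without normalization, and RPKM values, which the authors scaled to transcript length and library total. Peak tables give a fold enrichment (a ratio over background) that the authors deposited per peak, per the file headers. Build mm10 and the tools MACS 1.4.2, Novoalign, TopHat2 2.0.13, CASAVA 2.18 and Bowtie stand in the submitters' processing notes with no roles. The sources used here give neither the counting tool nor the strand. Per the labels' protocols, RNA was purified with an RNeasy kit, and 10 ng was amplified with NuGEN Ovation V2. Reads on genes were 55.8% to 60.3% of the library totals that the RPKM values imply. Reads shared by near-identical genes, such as granzymes, NK receptors and interferon-inducible families, could have been split between them, and overlapping or antisense genes cannot be told apart without strand.

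Each gene symbol was represented by its transcript with the highest read total over the 16 RNA libraries. The 10601 genes that reached 1 RPKM in 2 or more of the 8 libraries were tested with edgeR 4.0.16 in R 4.3.3: TMM scaling, 1 fit of the 8 libraries in 4 groups, quasi-likelihood F test, Benjamini-Hochberg adjustment over all genes tested, threshold 0.05, and a second count of calls at least 2-fold. The common biological coefficient of variation was 0.125. The test was run on simulated data first. Alternatives were DESeq2 1.42.0, limma 3.58.1 on log2(RPKM + 1) and log2(RPKM + 0.1), other filters and scalings, other sets of libraries, a replicate block and leaving out each library. A fit with same-numbered WT libraries summed was chosen after seeing the data. A gene with 0 reads in a group was given a floor of 3 reads over that group, and the 95% intervals of read ratios are exact. Floors and intervals cover counting error only.

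The members and the gene lists were chosen with earlier results of these data known. Named genes were 8 fixed ones, and the 15 largest rises and 15 largest falls (higher group averaging 5 RPKM or more, groups not overlapping). Also named were up to 4 called members per list with the smallest p-values, and all Th2 cytokines. The last were the 10 genes with the smallest p-values for the KO change minus the WT change, among genes averaging 5 RPKM or more in any group. Other genes are named as chosen after their values were seen, or as neighbours of the cytokine cluster. GATA3 peaks that overlapped an input peak by at least 1 base were removed, and each peak counted for the gene of the closest start in the deposited list. Promoters are RefSeq's for GRCm38.p6, matched by symbol. Only 7450 of the 10601 genes tested (70.3%) had a promoter in that table, so a comparison of motif shares between called genes would be void and was not made. A few members of the lists are counted but not reported by name here.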

Additional observations from a re-analysis of the deposited data

Results flagged for a closer look

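The change from early to late differed between KO and WT, by the test of the difference itself, for 1294 genes (edgeR, adjusted p below 0.05). Among those averaging 5 RPKM or more in any group, the 10 with the smallest p-values all rose in KO. Their log2 change in KO minus that in WT was 6.68 for Inhba, 6.56 for Timd2, 5.92 for Ccr1, 5.83 for Atp6v0d2, a proton pump subunit, 5.78 for Ermn, a cytoskeletal protein, 5.69 for Slc17a6, a glutamate transporter, 5.18 for Serpinf1, 3.92 for Kif3a, 3.87 for Mgll, a monoacylglycerol lipase, and 3.50 for Ncs1, a calcium sensor. Since early WT and late WT libraries of the same number differed by less than replicates did (2.77 and 2.00 times counting noise against 4.84 and 5.13), these values rest almost wholly on the KO libraries.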

How the results depend on the processing

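The 2600 calls between late and early KO became 1259 with all 16 libraries in 1 fit, and 1362 to 2557 when 1 library was left out. In such fits a group with 1 library is assumed to vary like the others. The count of calls at least 2-fold was 788 with limma on log2(RPKM + 1), 966 to 1271 with 1 library left out, and otherwise within 1.5 times 1201. The WT count of 0 became 1 with limma on log2(RPKM + 0.1). The 1294 calls for the KO change minus the WT change became 2076 with no filter, 603 with all 16 libraries and 694 to 1431 with 1 library left out. With a replicate block there were 3701 calls in KO, which held all 2600, and 2387 for the difference. No label ties a replicate number to a shared source. Deviations of same-numbered libraries correlated at 0.17 to 0.60 over pairs of groups, with only 2 numbers per group. Summing same-numbered WT libraries, an alternative chosen after seeing the data, gave 2540 calls in KO (95.3% of the 2600 shared).

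Peak shares for rises, falls and all genes were 56.0%, 43.2% and 35.7% with peaks at or above the median enrichment, and 21.2%, 14.4% and 16.6% within 1 kb. With peaks that overlap input kept, the share over all genes was 55.0%. Of 142 named genes 137 were called, 109 kept the call in every alternative run, 28 lost it in at least 1 and none changed sign. Log2 differences without a call that changed sign were Il5 (-1.19 to 0.74 with 1 library left out, positive without early KO replicate 1), Tbx21 (-1.22 to 0.47, positive without early KO replicate 2 or late KO replicate 1) and Il24 (-0.34 to 0.79, negative without early KO replicate 2 or late KO replicate 1). With 2 libraries a group, small changes may not be detectable. Genes that did not reach 1 RPKM in 2 or more of the 8 libraries were left out of the reported fit. With no filter on low values 3442 genes were called between late and early KO, 1693 of them at least 2-fold.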
